A study of Bos taurus with 8 samples.

Results

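SSLP1 (ENSBTAG00000052794) is 1 of the 14970 genes of the deposited table. It was chosen by its high RPKM in these same libraries of cultured bovine trophectoderm, so its level and rank are given as a description. Tests were made only between the days and against depth. The table's unit is RPKM, the reads of a gene divided by its exon length in kilobases and by the scaled size of the library. It covers 8 outgrowths of trophectoderm, the outer epithelium of the blastocyst that gives rise to the trophoblast of the placenta. Each outgrowth was grown from an individual in vitro produced embryo, which had hatched and was plated on collagen IV on day 10 in a trophectoderm growth medium. RNA was taken from 4 outgrowths on day 41 (libraries E to H) and from 4 outgrowths on day 35 (libraries A to D), and no further treatment is given. The sample titles number the outgrowths, and the number 1 occurs on both days, so whether the groups share an embryo is not known. The table names the day of each library and not the outgrowth, so the letters follow its column order. All outgrowths of both days are of in vitro origin, and trophectoderm from a uterus was not analysed here.

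SSLP1 encodes a small secreted protein of the Ly6/uPAR family. These proteins share a cysteine-rich domain held in shape by disulfide bonds. Many of them, such as the urokinase receptor PLAUR and the complement inhibitor CD59, are anchored in the cell membrane by a lipid, and others are released. The RefSeq table of assembly ARS-UCD2.0 lists SOLD1 as another symbol of the same gene. SOLD1 is known in cattle as a product of the mononucleate trophoblast cells of the placenta, and the name SSLP1 comes from a mouse protein of the seminal vesicle. The trophoblast of cattle also secretes pregnancy-associated glycoproteins (PAG genes), Kunitz-domain proteins (TKDP genes), interferon tau (IFNT genes), and placental lactogen with its prolactin-related relatives (CSH and PRP genes).

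The gene lies on the plus strand of chromosome 29 from 29084974 to 29092470 (ARS-UCD1.2). Its annotation in the table has 3 exons of 119, 114 and 1320 bases. The third exon makes up 85.0% of the 1553 bases by which its reads are divided. How reads that fit more than 1 place in the genome were counted, and whether strand was used, is not given in the sources used here.

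All 8 libraries expressed the trophoblast genes used to check the label. All 12 had values and a mean of at least 1 RPKM, 8 of them at least 100 RPKM, among them the epithelial keratins KRT8, KRT18 and KRT19. Their summed level was 8089 to 10106 RPKM on day 41 and 9947 to 15811 RPKM on day 35. The summed markers of hypoblast and yolk sac endoderm came to 14.1 to 158 RPKM on day 41 and 21.1 to 621 RPKM on day 35, with library G lowest and library B highest. Those of mesenchyme and stroma came to 2.05 to 34.9 RPKM on day 41 and 16.6 to 234 RPKM on day 35, again with G lowest and B highest. Those of cumulus and granulosa cells stayed between 2.17 and 5.09 RPKM in all libraries. The immune cell markers summed to 246 to 303 RPKM on day 41 and 201 to 308 RPKM on day 35, of which AIF1 alone gave 172 to 277 RPKM. The recovered reads numbered 119797973 to 158034430.0 per library on day 41 and 106402848 to 144658052 on day 35. Library A stood apart: its mean correlation with the other libraries over the tested genes was 0.954, against 0.966 to 0.976 elsewhere, and 9.26% of its reads came from ribosomal protein genes, where the other libraries had 5.11% to 6.47%.

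SSLP1 was among the most abundant transcripts of every outgrowth. It reached 8140.2 RPKM in library E, 8098 in F, 6954 in G and 9475 in H on day 41, and 6655 RPKM in library A, 9930.0 in B, 9319 in C and 6766 in D on day 35. Libraries G, A and D were the lowest, E and F lay in the middle, and H, C and B were the highest, so each day had low and high outgrowths. The highest value was 1.49 times the lowest over all 8. Each library is 1 outgrowth without a repeat, so neighbours in this order can be compared only with counting error, which was at most 0.0927% of the reads of SSLP1. In RNA of whole cultures, fewer cells of a type and less RNA per cell cannot be told apart.

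**Figure D1:**
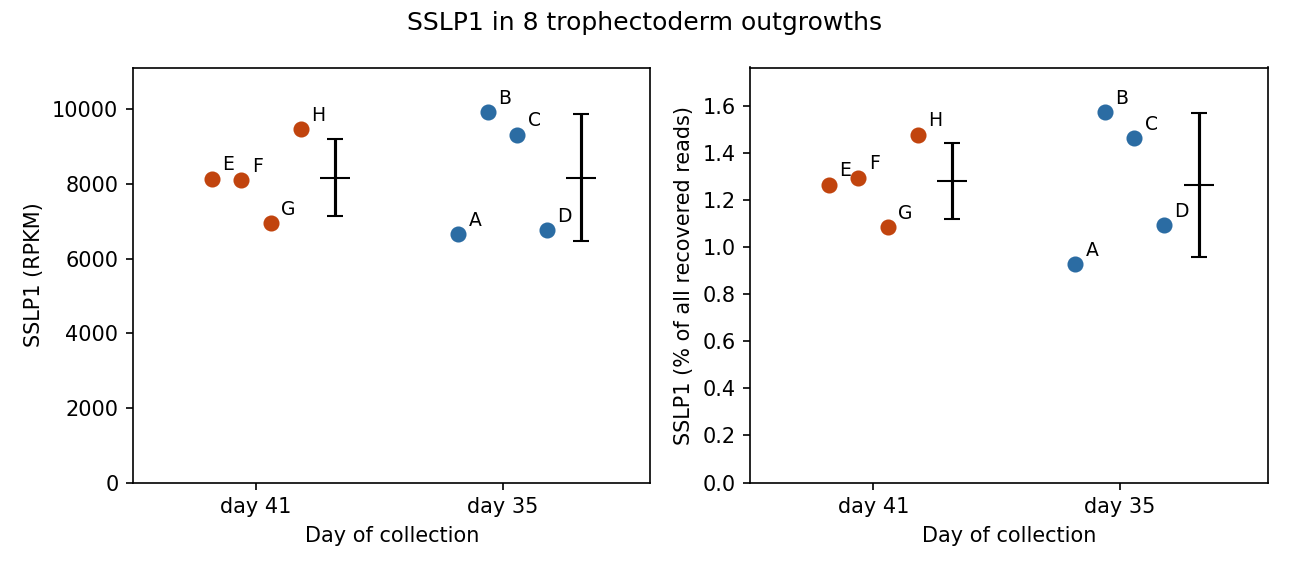
SSLP1 in RPKM (left) and as percent of all recovered reads (right) in each outgrowth, with day 41 left of day 35 and each point labelled with its library. Black bars give the mean ± SD of the 4 outgrowths of a day. Both days span low and high outgrowths, and their means nearly coincide.

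On the scale of single reads SSLP1 was second in all 8 libraries, below the mitochondrial COX1 and above the actin ACTB. It was thus the nuclear gene with the most reads in all 8. It took 1921289, 1682487, 1298962 and 2334224 reads in libraries E to H, and 1206765, 2276356, 1991187 and 1163807 reads in libraries A to D. As a share of all recovered reads this was 1.27%, 1.29%, 1.08% and 1.48% on day 41, and 0.927%, 1.57%, 1.46% and 1.09% on day 35. The 95% Wilson intervals of these shares extend by at most 0.00203 percentage points to either side and cover counting error only. Library A had the smallest share and library B the largest, both on day 35.

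Per kilobase, SSLP1 ranked 3 by its mean over the 8 libraries, between TMSB10, which binds actin monomers, and the mitochondrial COX3. Its rank was 2 in library H, where COX1 alone lay above it, and 3 in libraries E, F, B, C and D, where COX1 and TMSB10 did. It was 4 in library G, with ENSBTAG00000045630, a gene of chromosome 13 without a symbol in the table, as the third gene above it. It was 6 in library A, where TMSB10 was at 16248 RPKM and COX3 and COX2 also lay above. Of the values behind that rank, SSLP1 itself was 81.8% of the median of the other 7 libraries in A.

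The mean level of SSLP1 did not differ detectably between the days. It averaged 8167 ± 1031 RPKM on day 41 and 8167 ± 1701 RPKM on day 35 (SD, n = 4 each). The values of the days overlapped, since all 4 outgrowths of day 41 lay between the lowest and the highest outgrowth of day 35. The log2 fold change by limma-trend on log2(RPKM + 1) was 0.01 (SE 0.24, adjusted p = 0.990), with a 95% interval from -0.53 to 0.56. Its sign turned with array weights, to -0.12, and without library A, D or H. An exact permutation test of the share of reads, two-sided, gave p = 0.914 (1.28% ± 0.161 on day 41 and 1.26% ± 0.304 on day 35, n = 4 each), where the smallest p that 70 assignments allow is 0.0286. In the authors' deposited table the log2 fold change of SSLP1 is -0.00015, with an FDR of 1.00. By limma-trend, 6 of 12582 tested genes passed an adjusted p of 0.05, which is 0.0477%, and SSLP1 was not among them.

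The coefficient of variation of RPKM was 12.6% on day 41 and 20.8% on day 35. Library A had little part in it on this scale: without A the day 35 mean was 8672 RPKM and the coefficient of variation 19.4%. For the share of reads the coefficient of variation on day 35 was 24.1%, and 18.2% without A. The sum of RPKM over all genes was 687661 in library A, against 495867 to 547836 elsewhere. As a percentage of the summed RPKM, SSLP1 came to 1.49%, 1.55%, 1.28% and 1.75% in libraries E to H and to 0.968%, 1.88%, 1.75% and 1.36% in libraries A to D. On that scale library A stood at the bottom alone, and the highest value was 1.94 times the lowest. The coefficient of variation on day 35 was then 27.6%, and 16.1% without A.

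The level of SSLP1 was set against depth and against the markers of other cells. The total of recovered reads was 151847435, 129925328, 119797973 and 158034430.0 in libraries E to H and 130189352, 144658052, 136116413 and 106402848 in libraries A to D. Across the 8 libraries the level of SSLP1 and this total had a Pearson r of 0.740 (exact permutation p = 0.0375) and a Spearman rho of 0.738 (exact permutation p = 0.0458), the 1 relation of this kind computed. Without libraries D and H, the farthest from the median depth, r was 0.598 (exact permutation p = 0.219, n = 6) and rho was 0.657 (exact permutation p = 0.175), of the same sign but past no threshold with 6 libraries. Within the days r was 0.869 and rho 1 on day 41, and r was 0.784 and rho 0.8 on day 35, over 4 libraries each and without a test. The summed markers of hypoblast and yolk sac endoderm were lowest in the same 3 libraries as SSLP1, at 14.1 RPKM in G, 21.1 in A and 42.9 in D, against 79.1 to 621 RPKM in the others. The largest member of that sum in each library was APOA1, an apolipoprotein, at 9.65 to 336 RPKM. It gave 73.5 of 158 RPKM in library E and 42.4 of 99.7 RPKM in F. The members of the list did not share 1 order. Of its regulators, GATA4 was at 0.0022 to 0.419 RPKM and GATA6 at 0.924 to 5.84 RPKM, with library D second to C. SOX17 was at 0.092 to 2.15 RPKM and highest in G, D and A, the libraries lowest in SSLP1. AFP and TTR, secreted proteins of yolk sac endoderm, were at 0.401 and 0.057 RPKM in library H, where SSLP1 was high. The sums of the other marker lists did not have G, A and D lowest together. For mesenchyme and stroma G was lowest at 2.05 RPKM. There A at 25.2 and D at 24.2 RPKM lay above C, E and H, of which C was at 16.6 RPKM. The immune cell sum was lowest in D at 201 RPKM but was 298 RPKM in A. The sum of cumulus and granulosa cells was lowest in A at 2.17 RPKM but was 4.89 RPKM in D. Beyond the relation to depth given above, the part of depth and of these cells in the level of SSLP1 was not tested.

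Of the secreted products examined, which were listed by symbol, SSLP1 was the highest in each of the 8 libraries. The comparison covered 133 other genes with values, 32 of the trophoblast and 101 of general kinds. The general kinds were such as matrix proteins, growth factors and protease inhibitors. Some of the proteins are mainly lysosomal, cytosolic (such as CSTB) or membrane-bound. The next product was PAG11 in libraries E to H and in B and D, PAG2 in A and TKDP4 in C. SSLP1 exceeded it 2.31, 3.06, 2.94 and 3.93 times in libraries E to H, and 1.53, 2.64, 2.64 and 2.17 times in libraries A to D. The smallest margin was thus that of library A, where PAG2 reached 4349 RPKM. Genes without a symbol were not part of this comparison. Among them, ENSBTAG00000045630 and ENSBTAG00000053661 had means of 6323 and 3690 RPKM. The first was above SSLP1 in libraries A and G, at 8346 and 8976 RPKM. They start at 74209350 and 74222899 on chromosome 13, where TKDP4 ends at 74114980. Whether they encode secreted proteins was not examined.

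Whole families were summed for comparison. The 18 PAG rows summed to 5310, 3710, 2831 and 4784 RPKM in libraries E to H and to 10478, 6389, 4671 and 5107 RPKM in libraries A to D. SSLP1 was 1.53 to 2.46 times that sum on day 41 and 0.635 to 2.0 times on day 35, and library A was the one library in which the glycoproteins together were higher. The 3 TKDP rows summed to 3951, 4045, 356 and 3753 RPKM in libraries E to H and to 2020, 5246, 5282 and 4800 RPKM in libraries A to D. SSLP1 was above that sum in every library, 2.0 to 19.6 times on day 41 and 1.41 to 3.30 times on day 35, with the highest ratio in library G. The 3 interferon tau rows summed to at most 78.3 RPKM and the 9 placental lactogen and prolactin-related rows to at most 269 RPKM. Members of these families have near-identical copies, so reads may be split between their rows. Rows without a symbol were left out of the sums. Whether ENSBTAG00000045630 of chromosome 13, at 8976 RPKM in library G and 8346 RPKM in A, belongs to the TKDP family was not examined.

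**Figure D2:**
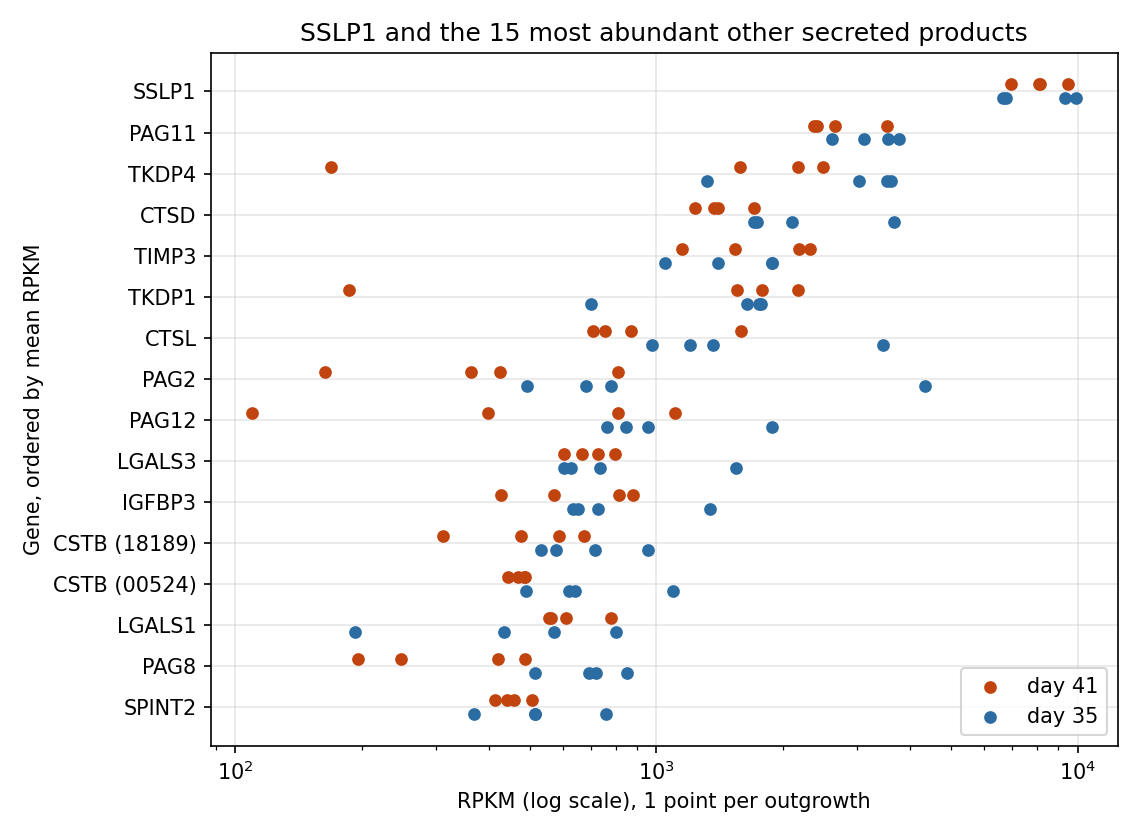
RPKM on a log axis of SSLP1 and of the 15 other secreted products with the highest mean, 1 point per outgrowth, with day 41 above day 35 in each row. SSLP1 holds the highest place, and its points lie closer together than those of TKDP4, TKDP1, PAG2 and PAG12.

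Most of the other abundant secreted products varied more between outgrowths than SSLP1 did. PAG11, a glycoprotein of the aspartic protease fold, was at 3521, 2650, 2363 and 2412 RPKM in libraries E to H and at 3543, 3766, 2609 and 3118 RPKM in libraries A to D. Its highest value was 1.59 times its lowest, and its SD within a day of 0.25 on the log2(RPKM + 1) scale was that of SSLP1, also 0.25. TKDP4, a Kunitz-domain protein, was at 2173, 2489, 169 and 1580 RPKM in libraries E to H and at 1320, 3604, 3530 and 3023 RPKM in libraries A to D. Library G held 6.79% of the median of the other libraries for TKDP4, 10.7% for TKDP1, 12.9% for PAG12 and 23.9% for PAG2, but 85.4% for SSLP1 and 75.8% for PAG11.

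Library A differed in another direction. PAG2 there was at 883% of the median of the other libraries, and CTSL, a cysteine protease, at 354%, while TKDP1 was at 40.0% of that median and SSLP1 at 81.8%. Among the rest of the 15 were CTSD, an aspartic protease, with a mean of 1864 RPKM, TIMP3, a metalloproteinase inhibitor, with 1674 RPKM, and IGFBP3, which binds insulin-like growth factors, with 756 RPKM. LGALS3 and LGALS1, galectins exported without a signal peptide, had means of 788 and 563 RPKM. PAG8 had a mean of 516 RPKM, SPINT2, a membrane-bound inhibitor of serine proteases, 498 RPKM, and the 2 rows of the protease inhibitor CSTB 603 and 591 RPKM. The ratio of the highest to the lowest library ranged from 1.59 in PAG11 to 26.7 in PAG2 over the 15, and was 1.49 in SSLP1.

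**Figure D3:**
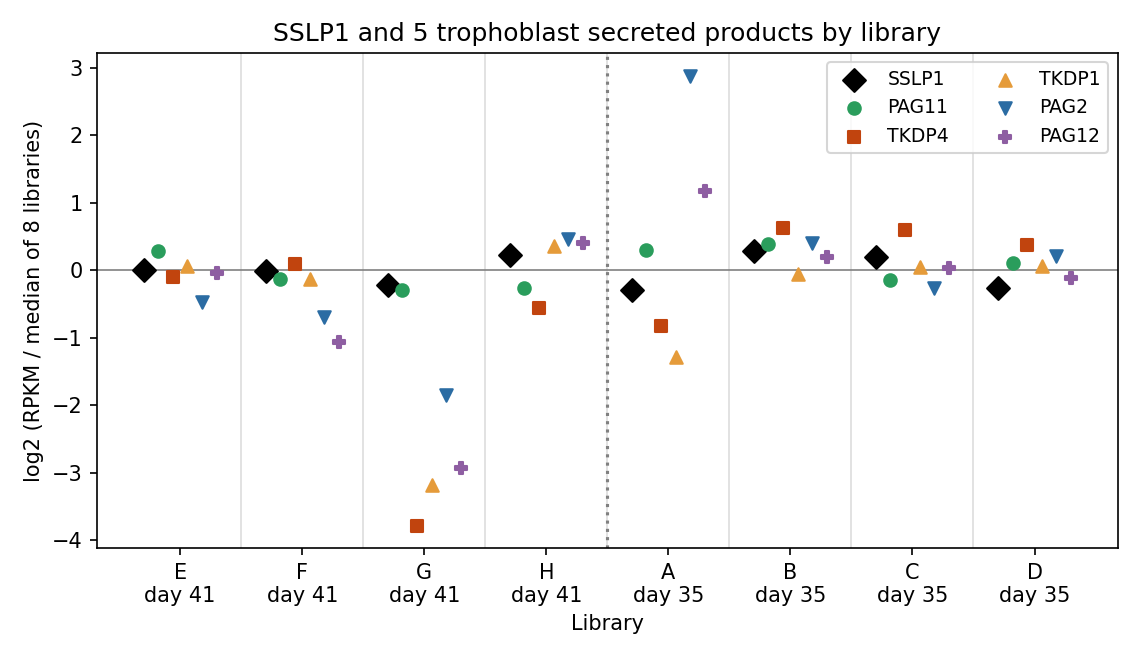
Log2 ratio of RPKM to the median of the 8 libraries, by library, for SSLP1 and 5 other trophoblast secreted products, with day 41 left of the dotted line. Library G is low in TKDP4, TKDP1, PAG12 and PAG2 and library A is high in PAG2, while SSLP1 stays near 0 in all 8.

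Against the whole table the place of SSLP1 depended on the measure of spread. Of the 12581 other tested genes, 62.6% had a smaller SD within a day than its 0.25, and the median was 0.21. By the ratio of highest to lowest library 3879 of them were smaller than its 1.49, and the median was 1.74. The SD is on a scale that understates the differences of low genes. Among 75 other nuclear genes with a mean of at least 1000 RPKM, a level chosen after the values were seen, 19 had a smaller SD, with a median of 0.35, and 10 had a smaller ratio of highest to lowest, with a median of 2.05. Mean level and spread of different genes were set side by side without a test.

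**Figure D4:**
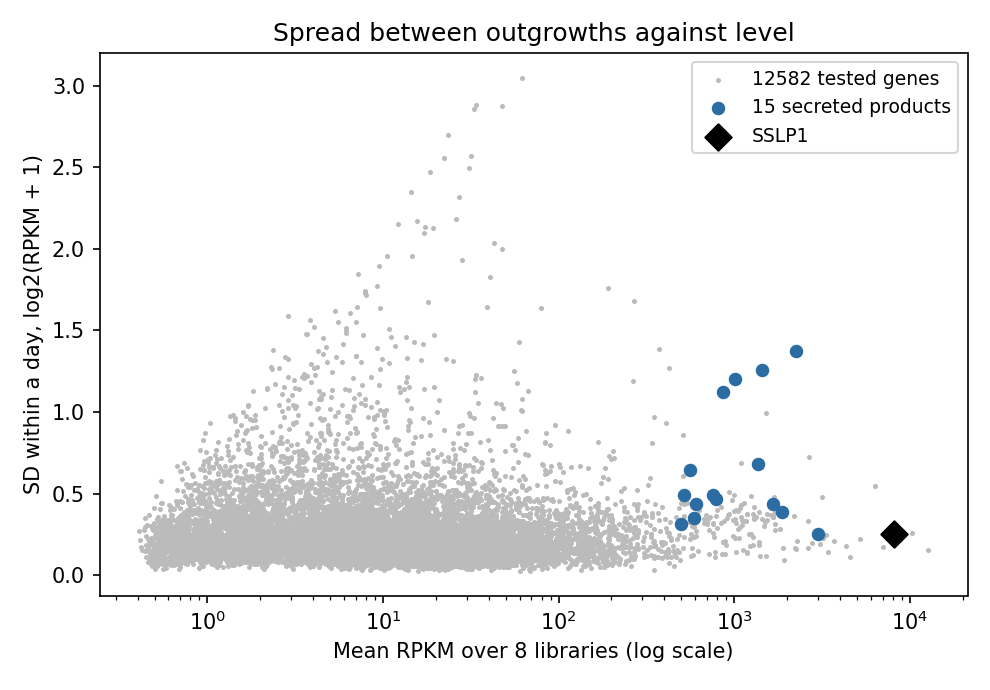
SD within a day on the log2(RPKM + 1) scale against mean RPKM on a log axis, for 12582 tested genes (grey), the 15 secreted products (blue) and SSLP1 (black). SSLP1 lies at 0.25, level with PAG11 and below the other 14 of the secreted products.

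None of the other secreted products passed the test between the days except ADM2, a peptide hormone that was lower on day 41 by limma-trend. That call was lost without library B, C, D, E or F, since no gene was called then, and with a pseudocount of 0.1, without the filter on low values or with limma-voom, where no gene was called lower. Of 30 tested trophoblast products 20 had higher and 10 lower values on day 41, with a median log2 fold change of 0.34. The median level of that list was 3.78 RPKM. Its abundant members PAG11, TKDP4, TKDP1, PAG2, PAG12 and PAG8 were all lower on day 41, with log2 fold changes from -0.26 to -1.45. PAG8 alone of the 30 had an unadjusted p under 0.05 by limma-trend, against 11.7% of all tested genes in either direction. Of 91 tested general products 39 had higher and 52 lower values, with a median of -0.14. The median was 0.01 for all 12582 tested genes, of which 6621 had higher and 5961 lower values. At an unadjusted p under 0.05 there were 2 higher and 10 lower general products, against 742 higher and 732 lower of all tested genes. Of the general products 5 had an FDR under 0.05 in the authors' deposited table. PAG8 was at 488, 247, 195 and 420 RPKM in libraries E to H and at 693, 853, 719 and 513 RPKM in libraries A to D. All 4 outgrowths of day 41 lay below the 4 of day 35, which 8.2% of tested genes showed in one or the other direction. Its log2 fold change by limma-trend was -1.11 (SE 0.30, adjusted p = 0.236), and the authors' deposited table gives it an FDR of 0.00381, where 1.76% of its genes have an FDR under 0.05.

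SSLP1 far exceeded its relatives of the Ly6/uPAR family. Of 42 other symbols listed, 17 had values, 9 of them with a mean of at least 1 RPKM and 8 below it. SSLP1 made up 81.6% to 94.5% of the summed RPKM of the family in a library. Its mean was 25.2 times that of the next member, LY6G6C, and 8.34 times the sum of the means of all 17. The symbol SOLD1, also listed, is the same gene and has no row of its own.

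LY6G6C and LY6G6E are neighbours in the major histocompatibility region of chromosome 23. LY6G6C was at 381, 330, 537 and 415 RPKM in libraries E to H and at 374, 135, 143 and 278 RPKM in libraries A to D. It was highest in library G, where SSLP1 was low, and lowest in B and C, where SSLP1 was high. The days overlapped through library A. The log2 fold change was 0.95 (SE 0.33), unadjusted p = 0.0198 and adjusted p = 0.337 by limma-trend, and the authors' deposited table has an FDR of 0.0178. LY6G6E was at 176, 182, 366 and 219 RPKM in libraries E to H and at 292, 81.9, 87.5 and 191 RPKM in libraries A to D, with G highest and B lowest as in LY6G6C.

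LY6E, an interferon-inducible membrane protein that serves as a syncytin receptor in mice, was at 223, 258, 287 and 189 RPKM in libraries E to H and at 532, 228, 307 and 238 RPKM in libraries A to D, with library A highest. PLAUR, the urokinase receptor, averaged 63.1 ± 26.1 RPKM on day 41 and 97.5 ± 56.5 RPKM on day 35. LYPD3, a related membrane protein of epithelia, averaged 43.8 ± 7.00 and 44.1 ± 14.8 RPKM on those days, and PINLYP 33.0 ± 25.1 and 34.0 ± 13.2 RPKM (SD, n = 4 each). PINLYP, related to inhibitors of phospholipases, was at 5.54 RPKM in library G, against 18.2 to 57.0 RPKM elsewhere. LYPD6, LY6G5B and CD59, the complement inhibitor, had means of 6.83, 2.18 and 2.02 RPKM.

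None of the 13 tested relatives passed over all genes between the days by limma-trend. LY6G6C, the only relative looked up with array weights, passed there (adjusted p = 0.0185), as did 1044 of 12582 tested genes. It also had an FDR under 0.05 in the authors' deposited table, as had 1.76% of the genes of that table. Values of the 13 relatives were higher on day 41 in 7 and lower in 6, with a median log2 fold change of 0.03. At an unadjusted p under 0.05 by limma-trend there were 2, LY6G6C and LY6G6F, both higher on day 41. Of all 12582 tested genes 11.7% passed that level in either direction, and 742 were higher. LY6G6F lay between 0.700 and 1.2 RPKM on day 41 and between 0.449 and 0.610 RPKM on day 35, with no overlap.

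The genes beside SSLP1 on chromosome 29 were expressed at far lower levels. The nearest gene on its left in the table is ACRV1, an acrosomal protein gene on the minus strand 17.9 kilobases away and itself of the Ly6/uPAR list, with a mean of 0.206 RPKM and 0.066 to 0.415 RPKM over the 8 libraries. The nearest on its right is ENSBTAG00000051470, without a symbol in the table, 30.5 kilobases away, with a mean of 0.234 RPKM and 0.0876 to 0.357 RPKM. Neither overlaps SSLP1. Of the 10 nearest genes, 5 on each side, 3 had a mean below 1 RPKM and 8 below 10 RPKM.

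The highest of the 10 was STT3A, a catalytic subunit of the enzyme that attaches N-linked glycans, with a mean of 107 RPKM, and the mean of SSLP1 was 76.4 times that. EI24, a protein of the endoplasmic reticulum, had a mean of 46.3 RPKM. CHEK1, a checkpoint kinase of the cell cycle, was at 10.7, 10.2, 8.6 and 11 RPKM in libraries E to H and at 6.6, 7.71, 8.82 and 8.2 RPKM in libraries A to D, with an adjusted p = 0.333 by limma-trend. PUS3, a pseudouridine synthase, had a mean of 9.22 RPKM, SNORD22, a small nucleolar RNA, 5.34 RPKM, and HYLS1, a centriolar protein, 3.75 RPKM. TMEM218 and the RNA helicase DDX25 had means of 1.34 and 0.255 RPKM. In the RefSeq order of protein-coding genes on assembly ARS-UCD2.0, PATE1 and PATE2, further members of the Ly6/uPAR family, stand to the right of SSLP1. They have no values under these symbols here and were not analysed.

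**Figure D5:**
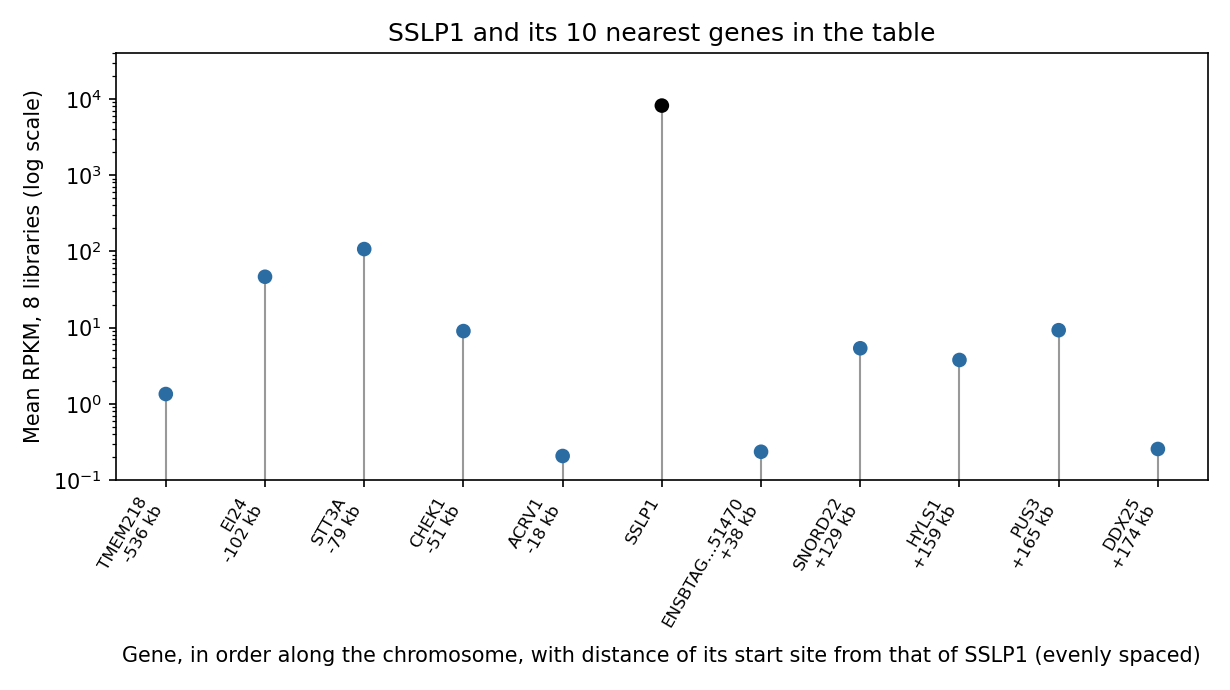
Mean RPKM over 8 libraries on a log axis of SSLP1 (black) and the 5 nearest genes of the table on each side (blue), evenly spaced in their order along the chromosome and labelled with the distance between start sites in kilobases. SSLP1 lies 76.4 times above STT3A, the highest of the 10.

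A secreted protein with disulfide bonds passes through the translocation channel, loses its signal peptide and is oxidised in the endoplasmic reticulum. All 34 listed genes of these steps were tested, 9 with higher and 25 with lower values on day 41. Of all 12582 tested genes 6621 had higher and 5961 lower values. None of the 34 passed over all genes by limma-trend or had an FDR under 0.05 in the authors' deposited table. Their median log2 fold change was -0.07, against 0.01 for all tested genes. With array weights, where 1044 of 12582 tested genes passed, only the 4 secretion genes named here were looked up. Of these, SEC11C (adjusted p = 0.0162) and PDIA5 (adjusted p = 0.0388) passed with array weights. At an unadjusted p under 0.05 by limma-trend there were 5 of the 34, all lower on day 41. Of all 12582 tested genes 11.7% passed that level in either direction, and 732 were lower. SEC11C, a catalytic subunit of the signal peptidase, was at 23.9, 23.0, 25.6 and 26.2 RPKM in libraries E to H and at 48.4, 34.6, 31.9 and 32.1 RPKM in libraries A to D, without overlap (log2 fold change -0.54, SE 0.14, adjusted p = 0.223). PDIA5, a protein disulfide isomerase, averaged 18.5 ± 2.68 RPKM on day 41 and 24.5 ± 0.682 RPKM on day 35 (adjusted p = 0.236). SPCS3, another subunit of the signal peptidase, averaged 73.8 ± 3.96 and 86.8 ± 7.34 RPKM on those days (adjusted p = 0.368). SRPRA, of the receptor that docks ribosomes for secretion, averaged 29.6 ± 2.34 and 35.5 ± 3.30 RPKM (adjusted p = 0.367). The means of SSLP1 on both days were 8167 RPKM beside these values.

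The genes whose profile over the 8 libraries was most like that of SSLP1 were ranked by the root mean square difference of log2(RPKM + 1), each gene centred on its own mean. Over 12581 genes the median difference was 0.30, and a gene with the same value in all libraries would have 0.22. C13H20orf27 had the smallest difference, 0.0859. It was at 44.5, 49.1, 42.3 and 49.5 RPKM in libraries E to H and at 38.4, 58.6, 56.9 and 42.8 RPKM in libraries A to D, with A, G and D lowest and B highest as in SSLP1. Library C came next in C13H20orf27 and library H in SSLP1. ERG28, a scaffold protein of sterol synthesis, had 0.0883 and was at 44.6, 38.6, 34.1 and 50.2 RPKM in libraries E to H and at 35.2, 45, 45 and 35 RPKM in libraries A to D. SLC35A4, of a family of nucleotide sugar carriers, had 0.108, ENSBTAG00000051248, without a symbol in the table, 0.109, and LRRN2, a leucine-rich repeat protein, 0.111. ENSBTAG00000051248 was at only 0.729 to 1.54 RPKM, where this scale understates differences. Its highest library was 2.12 times its lowest, and that of LRRN2 2.01 times, against 1.49 times in SSLP1. Without 1 library at a time, between 0 and 3 of the 5 named genes were still among the closest 5, and between 3 and 5 among the closest 20.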

How the data were processed

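RNA from 8 outgrowths was sequenced. Per the submitters' processing notes, the tools were HISAT2, featureCounts, edgeR and FastQC, with no version given, on build ARS-UCD1.2. Per the file headers, the authors deposited 1 table with RPKM, exon length, symbol and coordinates of each gene. Other columns give the authors' own test of day 41 over day 35 as a log2 fold change, a log2 CPM, a likelihood ratio score, a p-value and an FDR.

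RPKM times exon length was a whole multiple of 1 step per library within 0.01 for 100% of values, which gave the reads. The days were compared over 12582 genes with at least 0.5 RPKM in 4 libraries by limma-trend on log2(RPKM + 1) (limma 3.58.1, R 4.3.3), two-sided, with Benjamini-Hochberg adjustment at 0.05. That scale understates changes of low genes. The fit was checked on simulated data with independent normal values and planted changes. Those data held no shift of a whole library, so the check does not bear on how the calls depend on single libraries. Shares, ranks and permutation tests used Python 3.11.15 and scipy 1.17.1.

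The gene, the lists and the rules for naming genes were chosen with earlier results of these data known. Named were the 10 most abundant genes as far as a rank turned on them, 5 neighbours on each side, family members with a mean of at least 1 RPKM, 15 secreted products, 4 secretion genes with the smallest p and 5 genes with the closest profile. LY6G6F was added after its values were seen. The row PAG1 on chromosome 14, away from the glycoprotein genes, was left out of the secreted products. Labels do not say whether outgrowths shared a culture batch, so p-values measure the spread between these outgrowths. The alternatives were other pseudocounts, filters and scalings, limma-voom, array weights and leaving out each library. Scaling to an equal sum of RPKM was chosen after seeing the data.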

Additional observations from a re-analysis of the deposited data

Results flagged for a closer look

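Single outgrowths that lay far from the other 3 of their day were looked for in 56 measures of both days, 112 groups of 4, by the gap to the nearest other outgrowth relative to the range of the group. There were 12, and 8 of the 12 were library A. For normally spread values chance gives about 1 in 20 groups, or 5.6, but RPKM was taken here without a log. The groups also come from the same 8 libraries and are not independent, so the 12 cannot be tested against 5.6. None of the 12 was a value of SSLP1 itself. On day 41, PLAUR was at 102 RPKM in library H against 46.3 to 53.1 RPKM in the other 3. ENSBTAG00000045630 was at 8976 RPKM in library G against 6299.5 to 6647 RPKM, and HYLS1 at 3.38 RPKM in G against 4.23 to 4.33 RPKM.

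On day 35, library A had 4349 RPKM of PAG2 against 493 to 781 RPKM in the other 3, 1880.2 RPKM of PAG12 against 765 to 954 RPKM, and 699.8 RPKM of TKDP1 against 1640.2 to 1775 RPKM. It had 3456 RPKM of CTSL against 977 to 1360 RPKM, 1546 RPKM of LGALS3 against 603 to 735 RPKM, and 1339 RPKM of IGFBP3 against 635 to 727 RPKM. PUS3 was at 12.5 RPKM in A against 8.10 to 8.74 RPKM, and SEC11C at 48.4 RPKM in A against 31.9 to 34.6 RPKM. DDX25 was at 0.399 RPKM in library D against 0.197 to 0.223 RPKM.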

How the results depend on the processing

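The log2 fold change of SSLP1 stayed short of the threshold under each alternative run, but its sign is not determined: it was -0.12 with array weights and -0.076 to 0.12 when 1 library was left out, turning negative without A, D or H. The mean level of SSLP1 on either day moved by less than the SD of that day under each scaling and each library left out. The mean rank over the 8 libraries was 3.38, 2.125 without the mitochondrial genes and 2 for reads not divided by length. The number of genes called between the days was 6, and it was 3 with a pseudocount of 0.1, 3 without the filter, 2 with limma-voom, 1044 with array weights and 0 to 43 when 1 library was left out. It was 43 without A, and limma-trend called 0 without B, C, D, E or F, where 1040.0, 1125, 1705, 1051 and 1150.0 genes had an unadjusted p under 0.05. With array weights LY6G6C (adjusted p = 0.0185), SEC11C (adjusted p = 0.0162) and PDIA5 (adjusted p = 0.0388) passed. The causes were not tested. A planned count test on the recovered reads by quasi-likelihood was not run. No paired analysis was possible because the days share only 1 outgrowth number in the labels and the table's columns carry none. Counting error is small for SSLP1, and the number of outgrowths limits its comparisons. Its level was related to depth over all 8 libraries (Pearson r = 0.740, exact permutation p = 0.0375), but past no threshold without D and H. Beyond that relation, the part of depth in its level was not tested.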
